A study of Mus musculus with 16 samples.

Results

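RUNX1, MyoD and MyoG met at 6615 regions of chromosomes 1 to 19 where no c-Jun peak was called. These c-Jun-negative regions made up 6.77% of the 97753 regions obtained when the peaks of all 4 factors were merged wherever they overlapped by at least 1 bp. They were chosen from the measured peak calls themselves, namely the presence of a RUNX1, a MyoD and a MyoG peak and the absence of a c-Jun peak. Presence, absence and the peak scores are therefore given as a description, with no test.

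The peaks came from chromatin immunoprecipitation followed by sequencing (ChIP-seq), which maps the DNA to which a protein is bound. The cells were primary myoblasts grown from muscle stem cells (satellite cells) that were taken from the gastrocnemius of wild-type C57BL/6 mice at an age of 2 to 3 weeks. The maps of RUNX1, MyoD and c-Jun are from dividing cells on day 3 of culture, and that of MyoG is from cells given 24 further hours in differentiation medium with horse serum and insulin, so that factor and stage changed together for MyoG. Each of the 4 factors had 2 ChIP samples and 2 control samples, with non-immune rabbit serum as the control for RUNX1, mouse IgG for MyoD and MyoG and rabbit IgG for c-Jun. The authors deposited 1 peak list per factor, so the spread between cultures and the depth of each library are unknown, and the lowest and highest of the 19 chromosomes are given as a measure of spread along the genome.

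MyoD, of the basic helix-loop-helix family, commits cells to the muscle lineage, and MyoG, a close relative that recognises similar E-box sequences, acts later, when myoblasts leave the cell cycle and fuse. RUNX1 binds DNA through its Runt domain together with the partner CBFβ and is known in muscle from regenerating and denervated fibres. c-Jun is a subunit of AP-1, a dimeric factor that responds to growth signals and is linked to proliferation. A c-Jun-negative region thus has RUNX1 and MyoD peaks from dividing cells, a MyoG peak from after the switch, and no c-Jun peak called. Of the AP-1 subunits only c-Jun was mapped, and only in dividing cells, so other subunits may be present there.

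Among the 17147 regions with RUNX1, MyoD and MyoG, 38.6% had no c-Jun peak. The share varied little along the genome, from 34.5% on chromosome 13 to 41.8% on chromosome 11, with a median of 38.4% over chromosomes. Where MyoD and MyoG met without RUNX1, 72.2% of 16709 regions had no c-Jun peak (68.8% to 75.6% over chromosomes). Where RUNX1 and MyoG met without MyoD, the share was 63.6% of 7108 (55.8% to 67.8%). Regions with all 3 of RUNX1, MyoD and MyoG thus had a c-Jun peak more often than regions that lacked either RUNX1 or MyoD, and the chromosome ranges did not overlap. Over all 97753 merged regions, 41.9% held a c-Jun peak. Regions with all 3 were also wider than those without RUNX1. The median widths were 1547 against 1187 bp with c-Jun and 1090 against 820 bp without it. The part of width and of peak score in these shares was not tested. Of the regions with RUNX1 and MyoD but no MyoG, 34.1% of 1412 had no c-Jun peak (28.8% to 42.3%), a range that overlapped that of the regions with MyoG. The number of c-Jun-negative regions depends on how presence and absence are defined. When absence meant no c-Jun peak within 5 kb, 4126 regions (24.1%) qualified. When presence meant a score of at least 100 for RUNX1, MyoD and MyoG, with the c-Jun list as deposited, 3510 regions (31.5%) did. Binding in fewer cells and weaker binding in each cell cannot be told apart in such data.

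**Figure D1:**
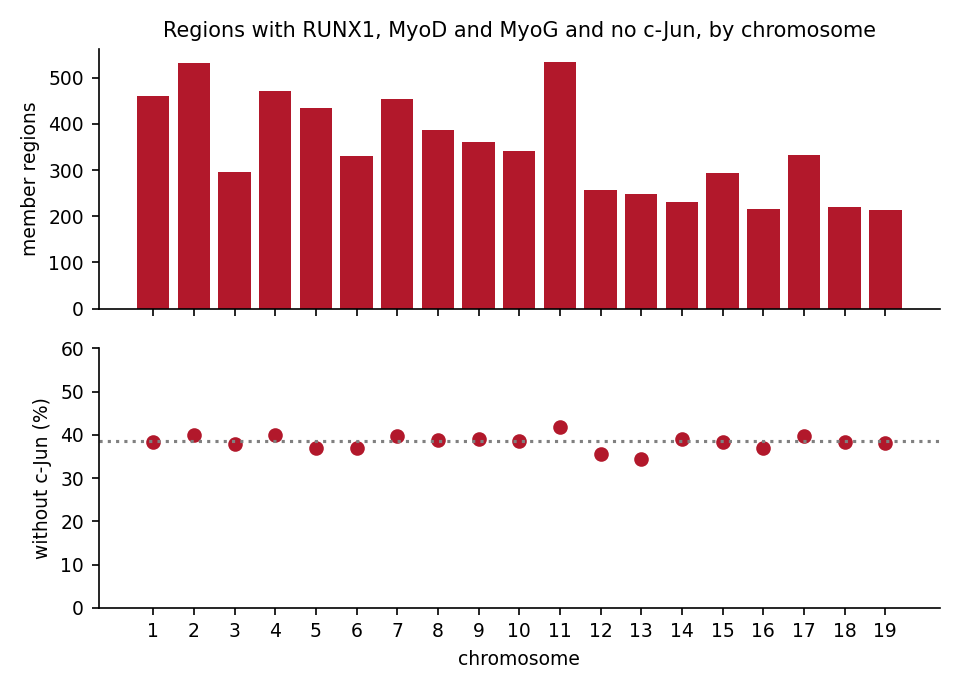
Number of c-Jun-negative regions (upper panel, bars) and their share among all regions with RUNX1, MyoD and MyoG (lower panel, points, percent) on each of chromosomes 1 to 19, with the share over all 19 as a dotted line. Numbers ran from 213 on chromosome 19 to 535 on chromosome 11, while the share stayed between 34.5% and 41.8%.

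Most c-Jun-negative regions held a single peak of each factor. Their median width was 1090 bp (quartiles 914 and 1433 bp), and 92.2% held exactly 1 peak of each of the 3 factors. At 97.1% of them, the highest-scoring RUNX1, MyoD and MyoG peaks shared at least 1 bp, so that few regions were held together only by a chain of neighbouring peaks. The 10532 regions with all 4 factors, called 4-factor regions here, had a median width of 1547 bp, and 78.3% held exactly 1 peak per factor. A 4-factor region must also span a c-Jun peak, whose median width there was 1229 bp. Regions with MyoD and MyoG but neither RUNX1 nor c-Jun were narrower than the c-Jun-negative regions, at 820 bp. Of these, 98.7% held exactly 1 peak per factor. Regions with RUNX1 and MyoD alone had a median width of 1008 bp, and 99.4% held exactly 1 peak per factor. The peaks within c-Jun-negative regions had median widths of 903 bp for RUNX1, 832 bp for MyoD and 741 bp for MyoG.

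The strength of a peak is read here from the score that the authors' peak caller wrote, which ranks peaks within 1 list and has no common scale between lists. Scores began at 50.01, and many sat at exactly 3100, so strengths at and above that value cannot be ordered. To place a region within each list, its highest score per factor was also turned into a percentile of all peaks of that factor on chromosomes 1 to 19. There the lists held 42226 RUNX1, 45201 MyoD and 61491 MyoG peaks. A percentile thus depends on how many weaker peaks its list holds. In c-Jun-negative regions RUNX1 and MyoD stood near the middle of their lists, and MyoG stood higher in its own.

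RUNX1, the factor that defines these sites beside the muscle factors, was of middling strength. Its median score was 166.4 (quartiles 88.3 and 367), the percentile 47.7 of the RUNX1 list, with chromosome medians from 147 to 191. In 4-factor regions the RUNX1 median was 343, the percentile 68.3, and the c-Jun-negative median was the lower on 19 of 19 chromosomes.

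MyoD, the lineage factor of the proliferating cells, was slightly above the middle of its list. The median MyoD score was 213 (quartiles 105 and 485), the percentile 55.6, with chromosome medians from 186 to 245. It was 530, the percentile 77.3, in 4-factor regions, again higher on 19 of 19 chromosomes. Regions with MyoD and MyoG but neither RUNX1 nor c-Jun had a median MyoD score of 140.1, the percentile 42.2, below the c-Jun-negative regions on 19 of 19 chromosomes.

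MyoG, mapped after the switch to differentiation medium, was strong. The median MyoG score was 597 (quartiles 261 and 1142), the percentile 77.8, and 82.4% of the c-Jun-negative regions had a MyoG peak at or above the median of the MyoG list. For RUNX1 and MyoD the corresponding shares were 47.4% and 56.5%. The MyoG median of 4-factor regions was 703, the percentile 81.0, only a little higher, although it was the higher on 19 of 19 chromosomes. In regions with MyoD and MyoG alone it was 237, the percentile 56.0. In both MyoD and MyoG rank, the c-Jun-negative regions therefore lay between 4-factor regions and those with MyoD and MyoG alone. They were nearer to 4-factor regions in MyoG rank than in MyoD rank. In regions with MyoD, MyoG and c-Jun but no RUNX1, the median MyoG percentile was 58.1.

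**Figure D2:**
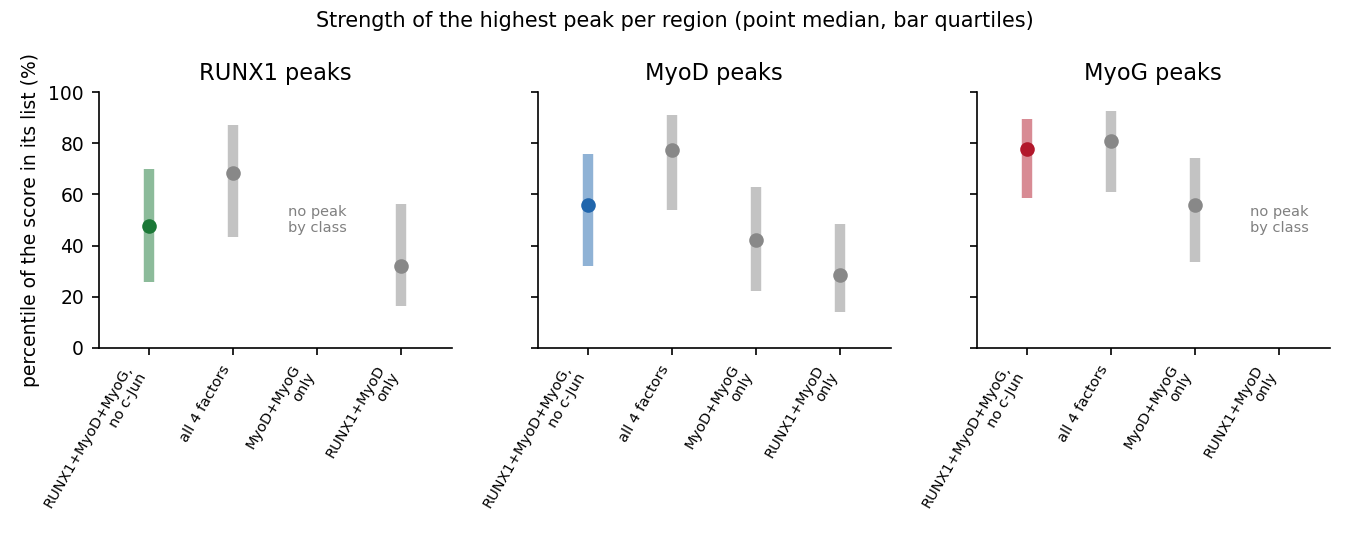
Percentile (percent, vertical axis) of the highest RUNX1, MyoD and MyoG score per region within the list of that factor, for c-Jun-negative regions (coloured) and 3 other classes (grey), with points for medians and bars from the lower to the upper quartile. The median MyoG percentile was 77.8 in c-Jun-negative regions and 81.0 in 4-factor regions, against 55.6 and 77.3 for MyoD and 47.7 and 68.3 for RUNX1.

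The difference between the MyoD and MyoG ranks also showed within single regions. MyoG stood at a higher percentile than MyoD in 79.5% of c-Jun-negative regions (74.8% to 84.0% over chromosomes). The share was 59.8% in 4-factor regions, with a highest chromosome of 64.8%, and 65.1% in regions with MyoD and MyoG alone, with a highest chromosome of 69.4%. The lowest chromosome of the c-Jun-negative regions was thus above the highest of both other classes. With c-Jun but without RUNX1, MyoG outranked MyoD in 42.1% of 4638 regions. Because MyoD and MyoG were mapped at different stages, a change over time and a difference between the factors cannot be told apart. The MyoG list was also the longer, at 61491 peaks against 45201 for MyoD. The part of list length and make-up in these ranks was not tested.

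The 3 scores were only partly linked across the 6615 regions. Spearman's rho was 0.52 between MyoD and MyoG (0.40 to 0.60 over chromosomes). It was 0.19 between RUNX1 and MyoG (0.065 to 0.28) and 0.12 between RUNX1 and MyoD (-0.0016 to 0.21). Between MyoD and MyoG it was 0.65 in 4-factor regions and 0.35 in regions with MyoD and MyoG alone. The regions share 1 list per factor, and hence the library depth and background of that list, so these values describe the lists and no test was made. In 27.1% of the c-Jun-negative regions all 3 factors were at or above the median of their list, and in 8.09% none was. The most frequent uneven pattern, at 24.1%, was MyoD and MyoG in the upper part of their lists with RUNX1 in the lower part. The pattern in which MyoG alone was high followed at 17.1%. RUNX1 was high with both muscle factors low in 4.20%. Taken singly, RUNX1 was at or above its list median in 47.4% of the regions, MyoD in 56.5% and MyoG in 82.4%. Whether the patterns differed from what these single shares alone would give was not tested.

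The share of regions without c-Jun fell steeply with the MyoD and RUNX1 scores and little with the MyoG score. The 17147 regions with RUNX1, MyoD and MyoG were divided into 10 classes of about equal size by each score in turn. Over the MyoD classes the share without c-Jun fell at every step from 59.3% in the weakest class (scores of 50.06 to 81.67) to 10.96% in the strongest (from 2002). Over the RUNX1 classes it fell at every step from 56.1% to 12.5%. Over the MyoG classes it was 38.4% in the weakest, between 35.8% and 43.3% in the next 8, and 25.1% in the strongest. Strong MyoD or RUNX1 peaks of myoblasts were thus seldom without c-Jun, whereas strong MyoG peaks of myotubes were so almost as often as weak ones up to the ninth class. c-Jun was mapped in dividing cells, as were MyoD and RUNX1, but MyoG only after the switch. Factor and stage therefore cannot be told apart in this contrast. The depth of the c-Jun libraries is unknown, and a c-Jun peak too weak to be called at a weak site was not tested.

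**Figure D3:**
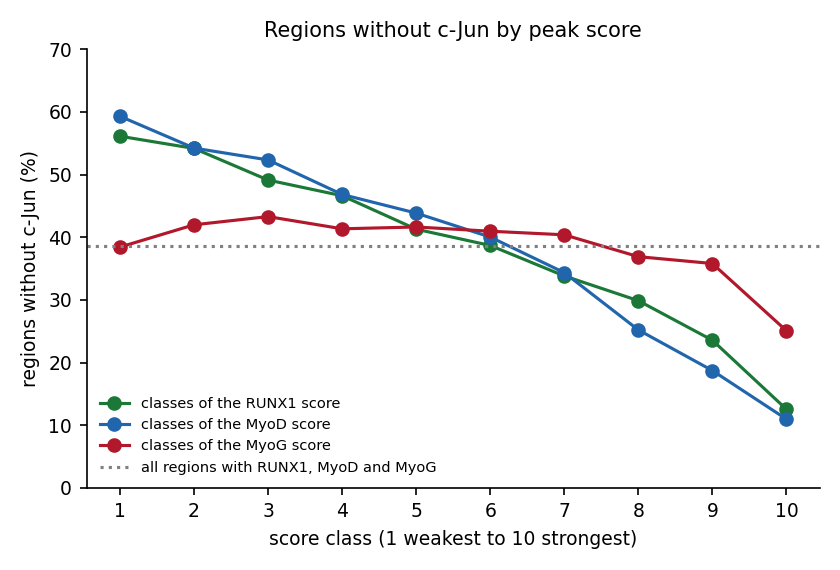
Share of regions without a c-Jun peak (percent, vertical axis) among the 17147 regions with RUNX1, MyoD and MyoG, in 10 classes of the RUNX1, MyoD or MyoG score from weakest to strongest, with the share over all regions as a dotted line. The MyoD and RUNX1 lines drop from 59.3% to 10.96% and from 56.1% to 12.5%, while the MyoG line stays between 35.8% and 43.3% up to class 9.

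Within a range of MyoD scores, the c-Jun-negative regions carried the higher-ranked MyoG peaks. For this comparison the regions with MyoD and MyoG, with or without RUNX1 and c-Jun, were divided into 10 classes of the MyoD score. In the weakest class the median MyoG percentile was 59.7 in 668 c-Jun-negative regions, against 48.4 in 439 4-factor regions, 44.7 with neither RUNX1 nor c-Jun, and 38.6 with c-Jun but without RUNX1. In class 5 the same medians were 77.5, 66.8, 60.3 and 50.9. In the strongest class they were 95.7, 95.3, 83.1 and 83.8, so the c-Jun-negative and 4-factor regions hardly differed there. The c-Jun-negative median was the highest of the 4 in 10 of 10 classes. It exceeded that of 4-factor regions by between 0.349 and 12.1 percentile points and that of regions with neither RUNX1 nor c-Jun by between 12.6 and 18.8 points. The mean difference over classes was above 0 on 19 of 19 chromosomes in each of these comparisons.

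A class still spans a range of MyoD scores. In the strongest class the median MyoD score was 2080 in c-Jun-negative and 2362 in 4-factor regions, while in class 5 it was 200.5 and 202. RUNX1 behaved in the other direction from MyoG. Among regions with RUNX1, MyoD and MyoG divided by the MyoD score alone, the median RUNX1 percentile of c-Jun-negative regions was the lower in 10 of 10 classes, at 41.3 against 64.5 in the weakest and 61.1 against 79.3 in the strongest.

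**Figure D4:**
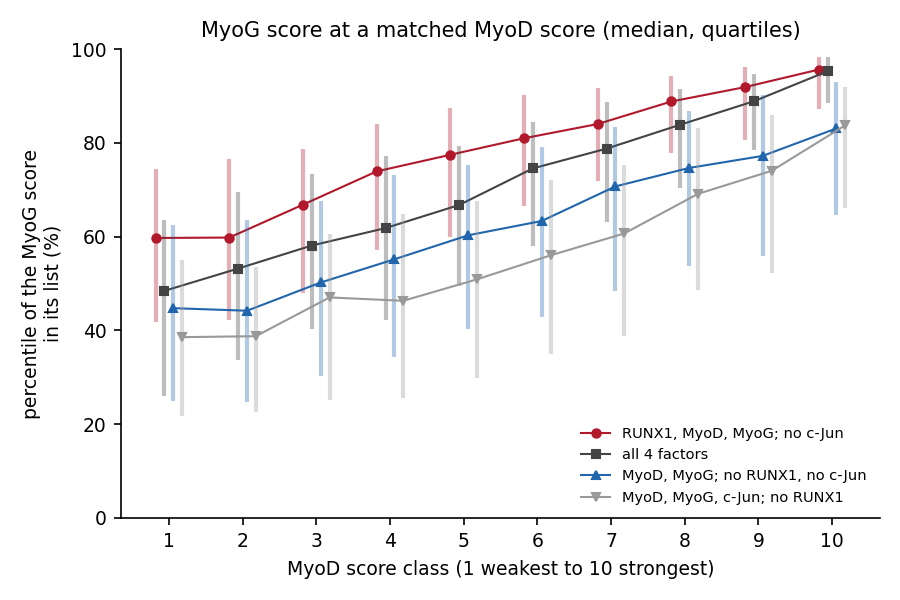
Percentile of the MyoG score in its list (percent, vertical axis) in 10 classes of the MyoD score, for regions with MyoD and MyoG split by the presence of RUNX1 and c-Jun, with points for medians and bars between quartiles, which overlap widely. The c-Jun-negative regions with RUNX1 lie highest in each class, from 59.7 in the weakest to 95.7 in the strongest, where 4-factor regions reach 95.3.

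The share without c-Jun was also counted by the MyoD and MyoG scores together. With regions split into 5 classes of the MyoD score and 5 of the MyoG score, 78.7% of the 47 regions with the weakest MyoD and the strongest MyoG had no c-Jun peak, beside 48.4% of the 1499 with both weakest. In the middle MyoD class the share rose from 33.3% with the weakest MyoG to 56.5% with the strongest. In the strongest MyoD class no such rise was seen, with 22.8% of 123 regions at the weakest MyoG class, 11.7% of 213 at the next, the lowest share of the 25 combinations, and 15.7% of 1898 at the strongest.

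MyoD and MyoG were centred on nearly the same point of the c-Jun-negative regions, and RUNX1 a little to the side. The lists give no summits, so the middle of each highest-scoring peak was used. MyoD and MyoG centres lay a median of 56.0 bp apart (quartiles 24.5 and 106.5 bp, chromosome medians from 48.8 to 65.0 bp), and 85.2% lay within 150 bp. RUNX1 and MyoD centres lay a median of 110.5 bp apart (quartiles 47.5 and 255.5 bp, chromosome medians from 92.5 to 136.5 bp), and 59.97% lay within 150 bp. RUNX1 and MyoG centres, though mapped at different stages, lay closer, at 86.5 bp (chromosome medians from 73.0 to 110.0 bp), and this median was below that for RUNX1 and MyoD on 19 of 19 chromosomes.

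RUNX1 was nearer to the MyoG centre than to the MyoD centre in 60.8% of 6598 c-Jun-negative regions, leaving out ties (55.9% to 65.8% over chromosomes). The MyoG centre was the middle one of the 3 in 48.1%, MyoD in 30.6% and RUNX1 in 21.3% of 6581 regions. MyoG peaks were the narrowest and the highest-ranked of the 3 in these regions, which bears on how closely a centre marks a site, and the part of width and rank in this order was not tested. The same order held in 4-factor regions, where RUNX1 was nearer to MyoG in 58.6%, so it was not limited to regions without c-Jun.

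All 3 centres fell within 50 bp of each other in 13.5% of the c-Jun-negative regions, within 100 bp in 36.3% and within 300 bp in 75.8%. In 4-factor regions these shares were 10.5%, 29.5% and 67.2%. The RUNX1 to MyoD median was 139 bp in 4-factor regions, the larger on 19 of 19 chromosomes, and the RUNX1 to MyoG median was 111.5 bp, the larger on 18. For MyoD to MyoG it was 61.5 bp, the larger on 17. Regions without RUNX1 had closer MyoD and MyoG centres than the c-Jun-negative regions. Their median was 48.5 bp without c-Jun, the smaller on 17 chromosomes, and 49 bp with c-Jun. Peaks and regions were wider with c-Jun, and the part of width in these distances was not tested.

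**Figure D5:**
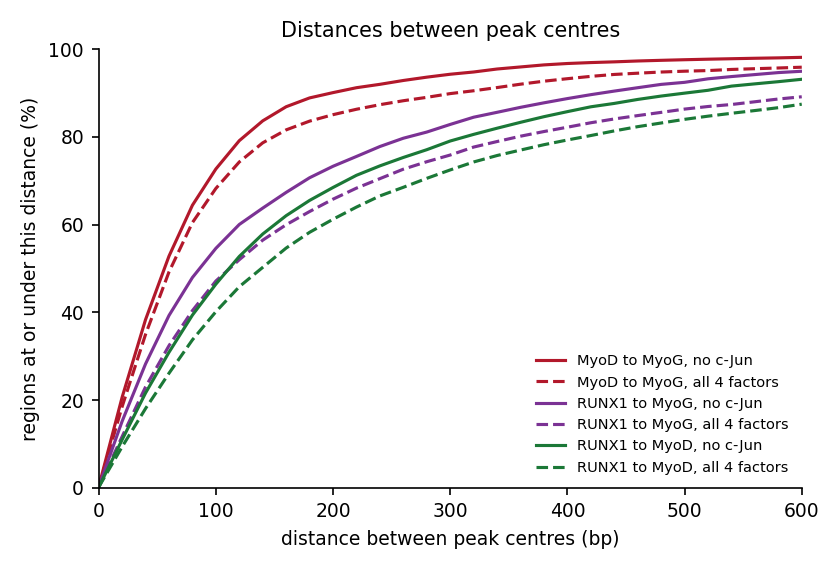
Cumulative share of regions (percent) by the distance between peak centres (bp) for 3 pairs of factors, in c-Jun-negative regions (solid lines) and 4-factor regions (dashed lines). MyoD and MyoG lie closest, with a median of 56.0 bp, then RUNX1 and MyoG at 86.5 bp and RUNX1 and MyoD at 110.5 bp, and each solid line lies above its dashed line from 20 to 600 bp.

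In 20.9% of the c-Jun-negative regions, 1384 in number, RUNX1 and MyoD centres were over 300 bp apart. There the RUNX1 score was higher, with a median of 230 against 152 in the 1745 regions with centres within 50 bp. The muscle factors were weaker, with MyoD at 182 against 223 and MyoG at 457 against 646. These distant regions were also wider, at a median of 1693 bp against 925 bp. When the regions were split into 4 equal classes of the RUNX1 score, the RUNX1 to MyoD distance grew from a median of 100 bp in the weakest to 143 bp in the strongest. Over 4 classes of the MyoD score it shrank from 121 to 105 bp. The MyoD to MyoG distance stayed between 54.5 and 59.5 bp over the 4 classes of the MyoD or of the MyoG score.

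c-Jun was not far away from most of the c-Jun-negative regions. The nearest c-Jun peak lay a median of 8020 bp from the region edge (chromosome medians from 6292 to 9696.5 bp). A c-Jun peak lay within 1 kb of 10.9% of the regions, within 10 kb of 56.3% and within 50 kb of 93.6%. Regions with MyoD and MyoG but neither RUNX1 nor c-Jun were much alike, with 10.0%, 52.1% and 90.5%. Regions with RUNX1 and MyoD alone had 10.8%, 55.9% and 91.3%, and the chromosome ranges overlapped in each case. The 424 regions at least 50 kb from c-Jun had lower median MyoG and MyoD scores than the 724 with c-Jun under 1 kb away. The values were 454 against 629 for MyoG and 184 against 239 for MyoD. At 1 to 10 kb and 10 to 50 kb, the MyoG medians were 621 and 588 and the MyoD medians 217 and 210. The RUNX1 medians differed little, at 170, 165, 168 and 159 from the nearest to the farthest class. The nearest merged region of any class held a c-Jun peak in 38.9% of cases (32.5% to 45.6% over chromosomes), beside 41.9% of all merged regions that held 1.

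The rule drew its line at an overlap of 1 bp, and few regions lay close to it. Of the c-Jun-negative regions, 77 (1.16%) had a c-Jun peak within 100 bp. The closest lay 2 bp from a c-Jun peak, at chr11:53611191-53612263 (build mm9, as for all positions here) with scores of 72.4 for RUNX1, 99.1 for MyoD and 701 for MyoG, and at chr7:72892592-72893849 with 211, 79.3 and 210.0. On the other side, 21 of the 4-factor regions owed c-Jun to an overlap of at most 100 bp. The shortest, 3 bp, was at chr6:134113752-134115654, with scores of 142 for RUNX1, 191 for MyoD, 181 for MyoG and 70.7 for c-Jun. By score, 523 c-Jun-negative regions had a RUNX1 peak under 60, 234 a MyoD peak and 88 a MyoG peak under 60.

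The strongest c-Jun-negative regions were picked by ranking the 6615 regions by their RUNX1, MyoD and MyoG scores in turn, keeping the poorest rank of each region, and taking the 10 regions for which that rank was best. First stood a region at chr6:29466829-29467960, in which RUNX1 and MyoD scored 3100 and MyoG 3233, and whose RUNX1 and MyoG centres lay 6.0 bp apart. Its nearest c-Jun peak was 21.3 kb away. The second, at chr4:98872160-98873479, had scores of 2302 for RUNX1, 2979 for MyoD and 3100 for MyoG, with c-Jun 20.03 kb away. The third, at chr11:77975247-77977126, had a RUNX1 score of 1764 with both muscle factors at 3100.

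Chromosome 7 held 3 of the 10. The region chr7:105302088-105303203 had scores of 1735 for RUNX1, 3100 for MyoD and 3161 for MyoG. The region chr7:83058572-83059665 had 1592, 3100 and 3123 in the same order. The last of these, chr7:29341606-29344314, had the highest RUNX1 score of the 3, 2757, with MyoD at 1947 and MyoG at 3100, and held 2 MyoG peaks. The other 4 were chr17:73467747-73469187, chr17:85175570-85176586, chr10:40999647-41001022 and chr10:5304551-5305643. Of all 10, 5 had no c-Jun peak within 10 kb, and the first region on chromosome 10 had the closest, at 0.516 kb. In all 10, scores were at least 1237 for RUNX1, 1882 for MyoD and 2719 for MyoG.

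At 172 regions there was exactly 1 peak of each factor and all 3 peak middles lay within 20 bp of each other. The best-ranked lay at chr3:128278059-128279323, with scores of 1181 for RUNX1, 2491 for MyoD and 3100 for MyoG and centres within 10.0 bp. Next came chr9:27282866-27283687, with 985, 1210 and 2512 and centres within 17.5 bp. Its nearest c-Jun peak was 141 kb away, which also placed it among the 5 strong regions most distant from c-Jun. The next 3 lay at chr18:47351776-47352869, at chr10:60689201-60690352 and at chr1:20047954-20049118, each with MyoG at 3100, and with RUNX1 scores of 665, 1260 and 632.

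The regions most distant from c-Jun, taken among the 500 that stood first by the same ranking, included 3 on chromosome 7. These were chr7:144785055-144785880, chr7:145282805-145283747 and chr7:138217267-138218252, at 145, 109.75 and 104 kb from a c-Jun peak. The fourth lay at chr4:68235466-68236374, at 107 kb. In these 4, RUNX1 scores ran from 344 to 556, MyoD scores from 422 to 631 and MyoG scores from 1141 to 1601. The poorest rank reached within the 500 was 1992 among the 6615 regions. By the rule that picked them, their distances were among the largest of the 500. The median distance of the 500 was 7006 bp (quartiles 2313 and 18935 bp), close to that of all c-Jun-negative regions.

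A median of 109332 bp separated neighbouring c-Jun-negative regions. Of the 4695 windows of 100 kb with any such region, 3339 held exactly 1, and the other 3276 regions (49.5%) shared their window with at least 1 more. A 4-factor region lay within 10 kb of 27.6% of them (19.5% to 33.3% over chromosomes), against 22.3% for regions with MyoD and MyoG alone (17.2% to 28.8%), and these ranges overlapped. Whether the regions grouped beyond the density of peaks was not tested.

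A few windows stood out by number, and 31 held 5 or more. The fullest, at chr18:32500001-32600000, held 10 c-Jun-negative regions among 21 regions of all kinds, with 2 4-factor regions. Its 10 regions spread over 91.3 kb, with RUNX1 scores from 55.2 to 723 (median 124), MyoD scores from 56.2 to 1218 (median 160) and MyoG scores from 93.0 to 2550 (median 717). The window at chr8:125100001-125200000 held 7, within 48.0 kb, with MyoG scores from 96.7 to 3100 (median 1290). In both windows, strong MyoG peaks stood beside weak ones, and the RUNX1 and MyoD medians were below 200, the RUNX1 median of the second being 180 and its MyoD median 181.

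There were 5 windows with 6 c-Jun-negative regions each. They lay at chr4:140100001-140200000, chr6:127900001-128000000, chr10:120800001-120900000, chr11:69100001-69200000 and chr13:37700001-37800000. The window on chromosome 11 held no 4-factor region, and its 6 regions had the highest MyoD and MyoG medians of the 5 windows, 601 and 1571, with a RUNX1 median of 84.5. That on chromosome 13 held as many 4-factor as c-Jun-negative regions, 6 of each.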

How the data were processed

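Per the submitters' processing notes, CASAVA 1.7.0 and 1.8.2 and Bowtie were used with the mouse build mm9. The authors deposited 4 peak lists with 1 score per peak, and the peak names begin with MACS. MACS settings, use of controls and pooling of replicates were not given in the sources used here. A list named by an abbreviation was taken as MyoG by elimination. The control samples were not analysed here, and the depth per sample is unknown, so no interval was computed.

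Peaks of chromosomes 1 to 19 were merged at 1 bp overlap with Python 3.11.15, numpy 2.4.6 and pandas 2.3.3, drawn with matplotlib 3.10.9. The merge was checked against bedtools 2.31.1, which gave the same 97753 regions and 6615 members, and tested on simulated data with planted classes. No test was made, since the peak calls chose the members and 1 list per factor leaves no replicates. The design named regions by rule: the 10 whose poorest rank over RUNX1, MyoD and MyoG was best, 5 with all centres within 20 bp, 5 among the best 500 farthest from c-Jun, and the 5 windows of 100 kb with most members, where a tie at 6 gave 7. The members, classes and rules were chosen with earlier results of these data known, and the comparisons at matched MyoD score, the counts by score class and the count of RUNX1 centres nearer to MyoG were added after values were seen. The gene and sequence tables at hand were of a later build than mm9, so genes, motifs and sequences were not analysed here.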

Additional observations from a re-analysis of the deposited data

How the results depend on the processing

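Of 42 alternatives, 33 stayed within 1.5 times a count or within the SD over chromosomes or score classes. The number of c-Jun-negative regions changed by over 1.5 times in 2: it was 3510 when RUNX1, MyoD and MyoG scores had to be at least 100 with the c-Jun list as deposited, and 4126 with no c-Jun peak within 5 kb. Among regions with RUNX1, MyoD and MyoG, the share without c-Jun was 38.6% and moved to 31.5% and 24.1% under these, to 34.4% with no c-Jun peak within 1 kb, to 41.9% with scores of at least 100 in every list and to 49.0% with 200 bp windows around the centres, which by construction overlap less. The median distance to c-Jun rose from 8.02 to 11.7 kb against c-Jun peaks of at least 100, a shorter list. The gap in this share between the weakest and strongest MyoG classes shrank from 13.4 to 9.36 points in regions with 1 RUNX1, 1 MyoD and 1 MyoG peak (chosen after seeing the data). At matched MyoD score, the MyoG percentile of c-Jun-negative regions exceeded that of 4-factor regions by a median of 6.52 points over classes. Under 3 added alternatives this difference was 8.30 to 8.57 points. No paired analysis was possible because each factor came as 1 list in which samples cannot be separated, and replicates could not be left out in turn. Alternatives on sequence windows and gene distances were not run without a genome of the files' build. With library depth unknown, a missing c-Jun peak does not show that c-Jun was absent.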

Other observations

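Chromosome X was outside the rule. It held 75 regions with RUNX1, MyoD and MyoG and no c-Jun peak among 1795 merged regions (4.18%). Of its 152 regions with RUNX1, MyoD and MyoG, 49.3% had no c-Jun peak, above the highest autosome, 41.8%. The median scores of the 75 regions were 138 for RUNX1, 263 for MyoD and 431 for MyoG, with MyoD higher and the other 2 lower than over the autosomes, and the difference was not tested.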
